A study of Mus musculus with 16 samples.

Results

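Smooth muscle contractile genes were described in the colon of Il10-/- mice, which have no interleukin 10 to restrain inflammation, and in that of C57BL/6J mice. The set was fixed by name as 10 genes, Lmod1, Myh11, Acta2, Actg2, Cnn1, Des, Tagln, Smtn, Synpo2 and Myocd. It was chosen with earlier results of these data known. Its members were the 19 array features whose platform annotation gave 1 of these symbols, out of 44290 features in the deposited table and 19087 genes named by a single symbol. Of the 19 features, 13 features of 8 genes could be tested and 6 could not.

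Smooth muscle shortens when myosin pulls on actin filaments, after calcium has switched on the kinase that phosphorylates the myosin light chain. Actin-binding proteins such as calponin, transgelin and smoothelin lie along these filaments, and desmin forms the intermediate filaments that tie the contractile lattice together. The coactivator myocardin, bound to serum response factor on DNA elements called CArG boxes, switches many of these genes on. In the colon the outer muscle coat, the thin muscle under the mucosa and the walls of blood vessels all hold such cells.

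The study compared male Il10-/- mice (strain B6.129P2-IL10<tm1Cgn>/J, a germline deletion present in every cell) with male C57BL/6J mice on each of 4 diets. The CO diet was AIN-76A, and the OA, EPA and AA diets were fat-free AIN-76A with 1% corn oil and 3.7% of oleic, eicosapentaenoic or arachidonic acid, all at 5% fat. Mice of both genotypes entered at 28 to 35 days of age, received Enterococcus faecalis, E. faecium and a complex intestinal flora by gavage, ate their diet for 6 weeks in amounts matched to the intake of the Il10-/- mice, and were killed for sampling after 77 days of age. Each of the 8 groups had 2 arrays, and each array compared an equimolar colon RNA pool of 2 to 3 mice (Cy3) with a reference RNA (Cy5) from Swiss mice, mixed from fetuses, liver, kidney and both parts of the gut.

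Values are log2 ratios of the pool over the reference, so 0 is the level of the reference and not of a control colon. Ratios of different features were not set against each other. Nothing in the labels says whether different mice went into each pool of a group, so the p-values cover the spread of these arrays alone, which may in part be technical. Whole colon pieces were used, so fewer muscle cells and less RNA per muscle cell cannot be told apart. The source label of 1 array of the Il10-/- OA group, pool 1, names the EPA diet, whereas its title names OA. The title was followed, and the diet results below are also given with that array read as EPA.

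On each array 326 to 985 features held exactly the same value, and no other value was held by more than 3 or 4 features. A value shared in this way, called tied here, cannot measure its own gene and was left out of every test. The C57BL/6J CO pool 2 array stood apart, with its tied value at 0.615 against −0.056 to 0.133 on the other arrays and only 326 features tied. The median absolute difference between the pools of its group, over all features, was 0.232, against 0.095 to 0.145 in the other groups. The genotype results are therefore also given without it.

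Ties fell on the actin, calponin and transgelin features. Actg2, the enteric smooth muscle actin, had 1 feature, tied on 13 of 16 arrays, and the 1 feature of Cnn1, calponin, was tied on 11 arrays and missing on 1. Neither gene could be tested. The second Tagln feature (31865) was tied on all 16 arrays, and Acta2 features 17064 and 23041 on 15 and 10. Those 2 Acta2 features carried the same transcript record as the Acta2 feature that was never tied (31996), and the tied Tagln feature the same record as the untied one. Acta2 feature 38214 was never tied but lacked a value on 4 arrays, among them both C57BL/6J AA arrays, so it could not be tested. The 12 values it had lay between −0.19 and 0.52. In all, 5 of the 19 features were tied on at least 1 array and 14 on none.

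**Figure D1:**
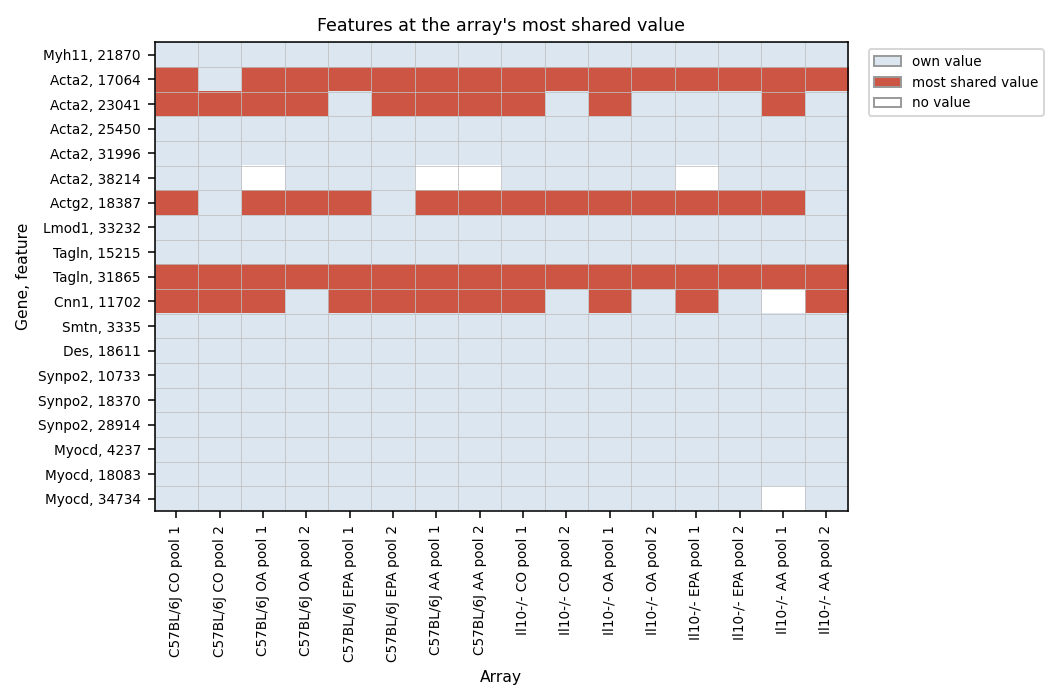
Each row is 1 of the 19 member features and each column 1 of the 16 arrays, ordered by group. Cells mark whether the deposited value was the array's tied value, missing, or used. The tied cells lie in 5 rows, of Acta2, Actg2, Cnn1 and Tagln, and Tagln feature 31865 is tied on all 16 arrays.

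The promoter of Acta2, smooth muscle alpha-actin, and that of Lmod1 are shown as examples of genes that were lower in the Il10-/- colon. Their 300-base windows differ in matches to the form of CArG box marked below, the element that myocardin and serum response factor use. Boxes of Lmod1 outside its window were not searched. RefSeq windows of 300 bases, from 250 before to 50 after the start, were available for 6 members on GRCm38.p6 (Lmod1, Acta2, Cnn1, Des, Smtn and Synpo2). Capitals mark 10-base CArG boxes in which at most 1 of the 6 central bases is G or C. The Acta2 window lies at chr19:34255324-34255623 on the minus strand and that of Lmod1 at chr1:135324563-135324862 on the plus strand.
Acta2: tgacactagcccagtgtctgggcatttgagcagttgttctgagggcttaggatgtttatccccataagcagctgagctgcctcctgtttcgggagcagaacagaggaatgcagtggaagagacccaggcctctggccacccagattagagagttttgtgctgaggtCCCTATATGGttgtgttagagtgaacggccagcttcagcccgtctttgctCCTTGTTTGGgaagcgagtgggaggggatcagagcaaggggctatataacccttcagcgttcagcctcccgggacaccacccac
Lmod1: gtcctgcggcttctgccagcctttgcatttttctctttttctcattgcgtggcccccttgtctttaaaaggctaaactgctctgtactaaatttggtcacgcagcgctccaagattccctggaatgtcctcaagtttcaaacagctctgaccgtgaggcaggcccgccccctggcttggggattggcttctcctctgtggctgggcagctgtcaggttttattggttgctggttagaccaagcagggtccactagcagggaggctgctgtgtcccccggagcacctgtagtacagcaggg

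The strict CArG box, CC then 6 bases of A or T then GG, searched on both strands, was found in 0 of the 6 members' windows and in 1.63% of all 32851 RefSeq windows. With 1 G or C allowed among the central bases, a form chosen after the strict search found none, the Acta2 window held 2 boxes and the other 5 windows held none. Of all windows 9.98% held at least 1 such box and 0.822% held 2 or more. A match is a string of letters and not a measured binding site, and boxes outside these 300 bases were not searched.

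Contractile genes were lower in the Il10-/- colon when the 4 diets were averaged. Of the 8 genes tested, 7 had a feature that fell (7 of 13 features) and none had one that rose, where 7.65% of all 36374 features tested fell and 8.54% rose. The genes were chosen with earlier results of these data known, so these shares are no independent test of the set. The 7 were Lmod1, Myh11, Acta2, Des, Tagln, Synpo2 and Myocd, and Smtn did not pass. The median difference over the 13 member features was −0.49, beside −0.009 over all features. A call means an adjusted p under 0.05 in limma's moderated fit of 8 group means, with Benjamini-Hochberg adjustment over all 36374 features.

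Among the genes of the thick and thin filaments, Lmod1 encodes leiomodin, which nucleates actin filaments in smooth muscle (chromosome 1, 135324813 to 135368065). In C57BL/6J colon its log2 ratios in pools 1 and 2 were 0.96 and 1.22 for CO, 0.76 and 0.96 for OA, 0.79 and 0.88 for EPA, and 0.67 and 0.93 for AA. The Il10-/- pools had 0.20 and 0.02 for CO, 0.01 and 0.25 for OA, 0.29 and 0.53 for EPA, and 0.34 and 0.60 for AA. Every Il10-/- array lay below every C57BL/6J array. Averaged over the diets Lmod1 was 0.28 ± 0.21 in Il10-/- against 0.90 ± 0.17 in C57BL/6J colon (SD, n = 8 arrays each). The difference was −0.62 ± 0.08 (SE, limma adjusted p = 8.19e-05), a ratio of 0.652 if the logs are base 2.

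Myh11, the smooth muscle myosin heavy chain (chromosome 16, 14194527 to 14292188), had the values 1.90 and 2.26 for CO, 1.85 and 2.32 for OA, 2.11 and 1.85 for EPA, and 1.57 and 2.10 for AA in C57BL/6J colon. The Il10-/- values were 0.91 and 1.09 for CO, 0.87 and 1.11 for OA, 1.88 and 1.50 for EPA, and 1.60 and 1.56 for AA. The CO and OA arrays of the Il10-/- mice stood below all C57BL/6J arrays. Their EPA and AA pool 1 arrays reached into the C57BL/6J range, and pool 2 of both diets lay below it. The averaged difference was −0.68 ± 0.10 (limma adjusted p = 0.000514), from 1.32 ± 0.37 against 2.00 ± 0.25.

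Acta2 (chromosome 19, 34240336 to 34255585) was followed by feature 31996, which read 1.57 and 1.14 for CO, 1.27 and 1.44 for OA, 1.42 and 1.18 for EPA, and 1.13 and 1.56 for AA in C57BL/6J colon. The Il10-/- pools gave 0.34 and 0.44 for CO, 0.09 and 0.45 for OA, 0.61 and 1.11 for EPA, and 1.27 and 0.95 for AA. Only the Il10-/- AA pool 1 reached into the C57BL/6J range. The averaged difference was −0.68 ± 0.10 (limma adjusted p = 0.000534). Feature 25450, placed on the gene by a cDNA clone, ran from 0.24 to 0.76 in C57BL/6J and from 0.12 to 0.55 in Il10-/- colon, and its difference of −0.21 ± 0.08 did not pass (limma adjusted p = 0.0904).

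**Figure D2:**
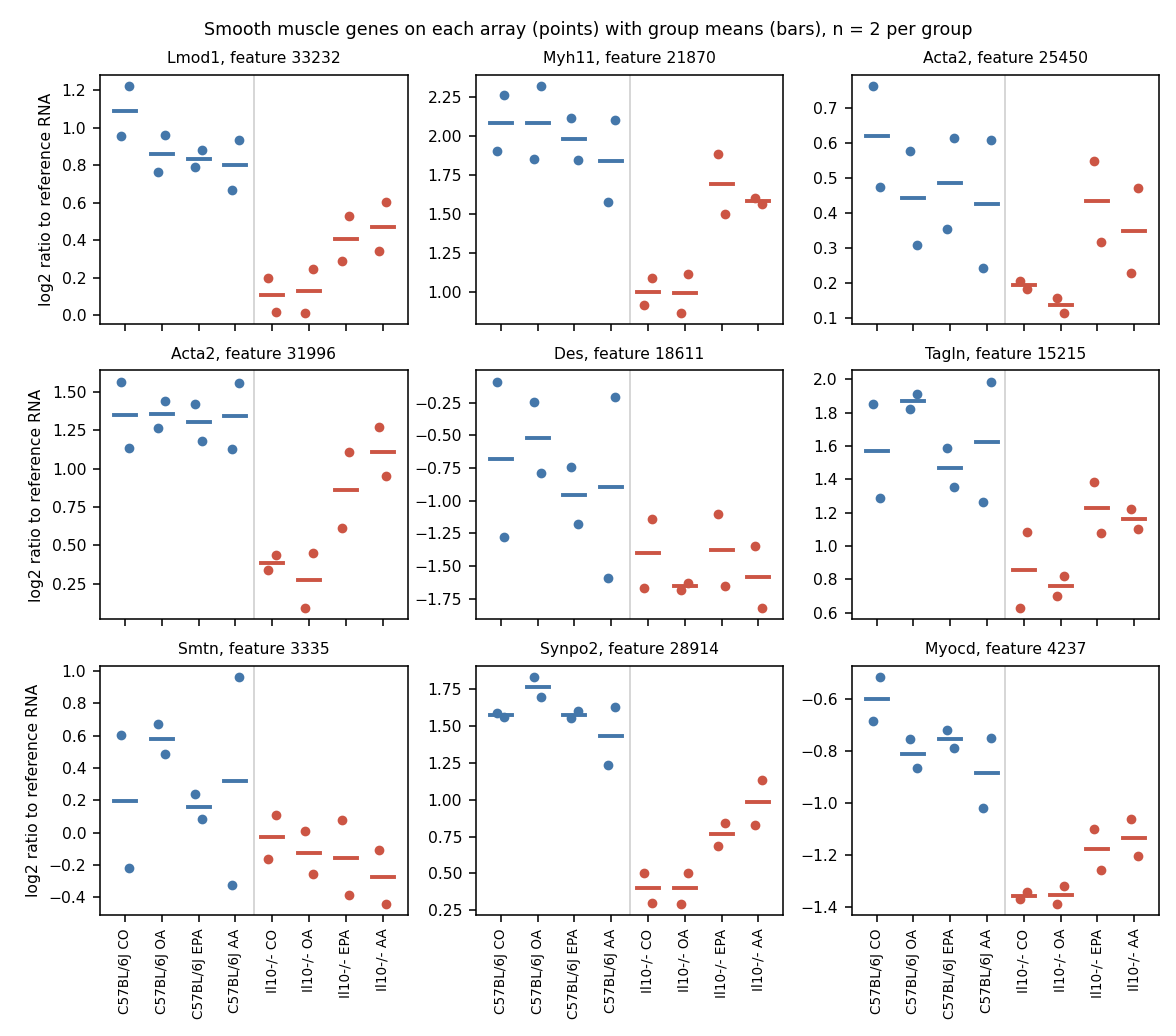
Log2 ratios of pool over reference are plotted by genotype and diet for 9 tested features, those with an adjusted p under 0.1 in the averaged comparison. Each point is 1 array, with pool 1 on the left and pool 2 on the right, and each bar is the mean of its group. For Lmod1, Synpo2 feature 28914 and Myocd feature 4237 every Il10-/- point lies below every C57BL/6J point.

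Of the actin-binding and lattice proteins, Synpo2 (synaptopodin 2, an actin-bundling protein, chromosome 3, 123076519 to 123236168) had the largest difference among the member features. Its feature 28914 read 1.59 and 1.56 for CO, 1.83 and 1.70 for OA, 1.56 and 1.60 for EPA, and 1.23 and 1.63 for AA in C57BL/6J colon. Among the Il10-/- arrays it read 0.50 and 0.30 for CO, 0.29 and 0.50 for OA, 0.69 and 0.84 for EPA, and 0.83 and 1.14 for AA. The genotypes did not overlap. The difference was −0.95 ± 0.07 (limma adjusted p = 1.75e-06), from 0.64 ± 0.29 against 1.59 ± 0.17, a ratio of 0.517 if base 2.

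The other Synpo2 features did not show it. Feature 10733, on the gene's RefSeq transcript, lay between −0.21 and 0.14 on all 16 arrays and differed by −0.03 ± 0.05 (limma adjusted p = 0.802). Feature 18370 lay between −0.03 and 0.40 and differed by 0.00 ± 0.07 (limma adjusted p = 0.981). Both stayed near the reference level in both genotypes, so the Synpo2 result rests on the single feature 28914, which the annotation places on the gene by a cDNA clone.

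Tagln, transgelin (chromosome 9, 45929628 to 45936058), read 1.85 and 1.29 for CO, 1.82 and 1.91 for OA, 1.59 and 1.35 for EPA, and 1.26 and 1.99 for AA in C57BL/6J colon by its untied feature 15215. Its Il10-/- values were 0.63 and 1.09 for CO, 0.70 and 0.82 for OA, 1.38 and 1.08 for EPA, and 1.22 and 1.10 for AA. The ranges overlapped through the Il10-/- EPA pool 1. The averaged difference was −0.63 ± 0.12 (limma adjusted p = 0.00213).

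Des, desmin (chromosome 1, 75360292 to 75368579), read −0.09 and −1.28 for CO, −0.25 and −0.79 for OA, −0.74 and −1.18 for EPA, and −1.59 and −0.21 for AA in C57BL/6J colon. The Il10-/- mice had −1.66 and −1.14 for CO, −1.68 and −1.63 for OA, −1.10 and −1.66 for EPA, and −1.35 and −1.82 for AA. The pools of a C57BL/6J group differed by up to 1.38, and the genotypes overlapped. Des fell by 0.74 ± 0.22 on average (limma adjusted p = 0.032), a call that ended in 9 of 23 alternative settings, 8 of them the loss of 1 array. Smtn, smoothelin (chromosome 11, 3517522 to 3539292), ran from −0.32 to 0.96 in C57BL/6J and from −0.44 to 0.11 in Il10-/- colon, and its difference of −0.46 ± 0.17 did not pass (limma adjusted p = 0.0933). Without C57BL/6J AA pool 1, its lowest C57BL/6J value, Smtn passed at −0.62 ± 0.13 (limma adjusted p = 0.00579), and it also passed without C57BL/6J CO pool 2 at −0.56 ± 0.16 (limma adjusted p = 0.0269).

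Myocd, the coactivator (chromosome 11, 65173608 to 65269989), fell in 1 of its 3 features. Feature 4237 read −0.69 and −0.52 for CO, −0.75 and −0.87 for OA, −0.72 and −0.79 for EPA, and −1.02 and −0.75 for AA in C57BL/6J colon. On the Il10-/- arrays it read −1.37 and −1.34 for CO, −1.39 and −1.32 for OA, −1.10 and −1.26 for EPA, and −1.06 and −1.21 for AA. The genotypes did not overlap. The difference was −0.49 ± 0.06 (limma adjusted p = 6.36e-05), from −1.26 ± 0.12 against −0.76 ± 0.15. Feature 18083, on a different RefSeq transcript of the gene, differed by 0.05 ± 0.06 (limma adjusted p = 0.646) and feature 34734, from a cDNA clone and missing on 1 Il10-/- AA array, by 0.06 ± 0.08 (limma adjusted p = 0.726).

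All Il10-/- arrays lay below all C57BL/6J arrays in 3 of the 13 member features (Lmod1, Synpo2 feature 28914 and Myocd feature 4237), against 1.7% of all features. An exact permutation of the genotype labels within diets, 2-sided over 1296 arrangements, gave p = 0.00154 for these 3, the smallest it can give. Their lack of overlap fixes that value, so it adds no support. It gave exact p = 0.00309 for Tagln, 0.00463 for Acta2 feature 31996, 0.00772 for Myh11, 0.0139 for Des and 0.0324 for Smtn. Acta2 feature 25450 had exact p = 0.0355, and Synpo2 features 10733 and 18370 had 0.537 and 0.954. Myocd features 18083 and 34734 had exact p = 0.333 and 0.505, the latter over 648 arrangements. These exact p-values are not adjusted for the number of features. Without the C57BL/6J CO pool 2 array the 7 calls held, with Lmod1 at −0.58 ± 0.07 (limma adjusted p = 0.000127), Synpo2 at −0.95 ± 0.08 (3.52e-06) and Des at −0.89 ± 0.19 (0.0057).

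**Figure D3:**
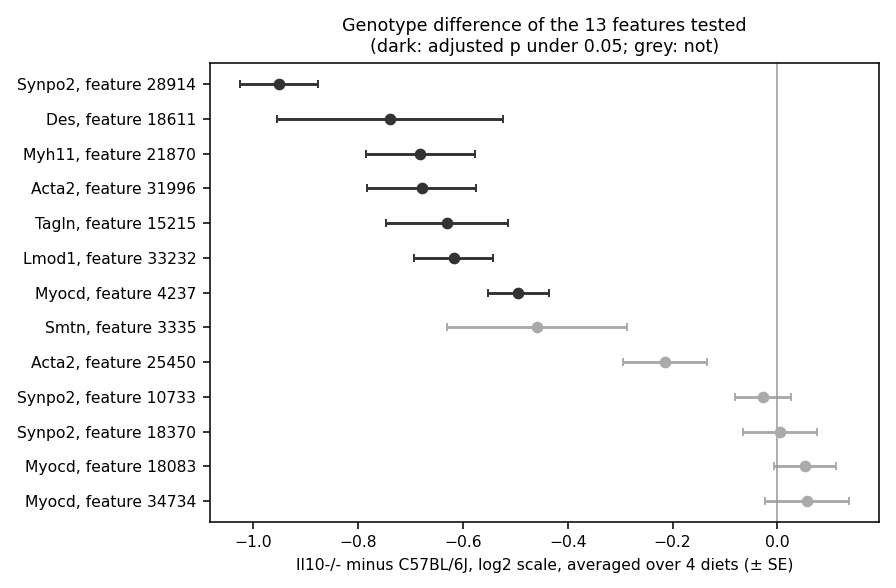
The Il10-/- minus C57BL/6J difference in log2 ratio, averaged over the 4 diets, is plotted for the 13 tested member features with its standard error. Synpo2 feature 28914 lies farthest below 0, at −0.95, while the other Synpo2 features and Myocd features 18083 and 34734 lie near 0.

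By diet, the count of member genes with a lower feature was 5 on CO (Lmod1, Myh11, Acta2, Synpo2 and Myocd; 3.36% of all features were lower) and 6 on OA (the same genes and Tagln, 1.93%). It was 1 on EPA (Synpo2, 0.473%) and 0 on AA (0.396%), where 3789 features had an unadjusted p under 0.05. Over all features the share called lower was likewise larger on CO and OA than on EPA and AA. The median difference over the 13 features was −0.71 on CO, −0.70 on OA, −0.29 on EPA and −0.25 on AA. With Il10-/- OA pool 1 counted as EPA, as its source label has it, the OA count was 1 (Synpo2) and the EPA count 2 (Myocd and Synpo2), and the medians were −0.62 on OA and −0.42 on EPA. The CO count was 3 without Il10-/- CO pool 1. The OA count was also 1 without that array or without C57BL/6J OA pool 2, and the EPA count was 0 without any 1 of the 4 EPA arrays.

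The size of the genotype difference in most genes was larger on CO and OA as well. For Myh11 it was −1.08 on CO and −1.10 on OA, but −0.29 on EPA and −0.26 on AA, each ± 0.21 (limma adjusted p = 0.0067, 0.00741, 0.716 and 0.775). For Acta2 feature 31996 it was −0.96, −1.08, −0.44 and −0.23, and for Synpo2 feature 28914 −1.17, −1.37, −0.81 and −0.45, in the order CO, OA, EPA and AA. For Lmod1 it was −0.98, −0.73, −0.43 and −0.33, and for Myocd feature 4237 −0.76, −0.55, −0.43 and −0.25. In each of these 5 features the difference was below 0 on every diet, with the smaller sizes on EPA and AA, as it was for Tagln at −0.71, −1.11, −0.24 and −0.46 and for Des at −0.72, −1.14, −0.42 and −0.68. Smtn, at −0.22, −0.70, −0.32 and −0.59, had its smallest size on CO.

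The test of that dependence did not pass for any member. The genotype by diet interaction called 0 of 36374 features in limma's F test (smallest adjusted p = 0.221), with 2391 at an unadjusted p under 0.05. The lowest adjusted p among the members was 0.468, for Synpo2 feature 28914. A call on one diet and none on another therefore does not show that the genotype difference depended on diet.

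**Figure D4:**
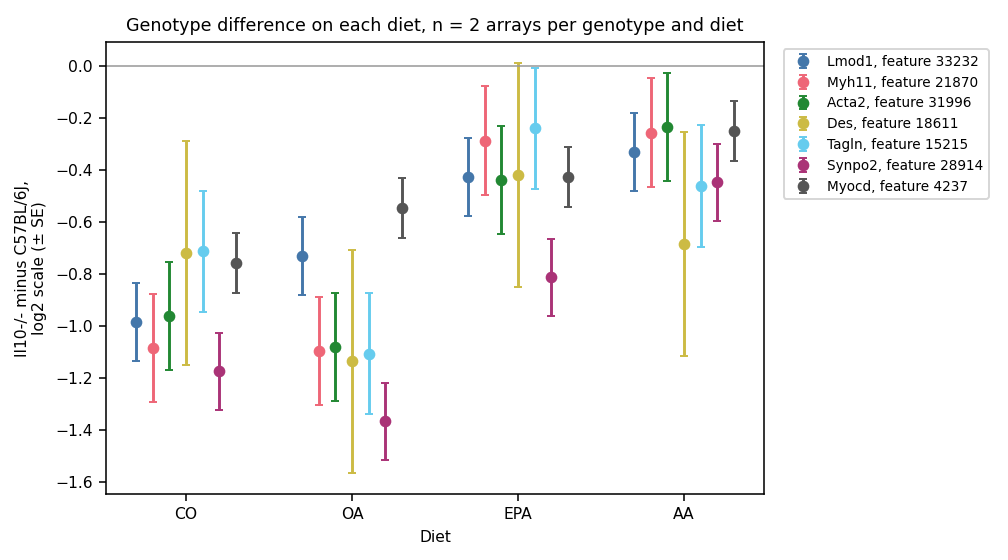
The Il10-/- minus C57BL/6J difference in log2 ratio is plotted on each diet, with its standard error, for the 7 member features called in the averaged comparison. Myh11 lies at −1.08 and −1.10 on CO and OA and at −0.29 and −0.26 on EPA and AA, and the interaction test called 0 features.

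Within a genotype no member gene passed a test of diet. In C57BL/6J colon 0 of 36374 features were called in any of the 4 diet contrasts or in the test of any diet difference (0%), with 1147 to 3673 features at an unadjusted p under 0.05 in the contrasts. For the Il10-/- mice the contrasts of OA with CO, of EPA with AA and of EPA with OA called 0 features (0%; 517 to 1508 at an unadjusted p under 0.05), AA against OA called 1 (0.00275%) and the test of any diet difference called 4 (0.011%), none of them a member. Myh11 stood 0.70 ± 0.21 higher on EPA than on OA (limma adjusted p = 0.844). Acta2 feature 31996 stood 0.84 ± 0.21 and Synpo2 feature 28914 0.59 ± 0.15 higher on AA than on OA (limma adjusted p = 0.461 for each). With Il10-/- OA pool 1 read as EPA these differences were 0.30 ± 0.32 for Myh11, 0.66 ± 0.32 for Acta2 and 0.48 ± 0.22 for Synpo2 (limma adjusted p = 1 for each).

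Because the EPA and AA pools of the Il10-/- mice lay together, these diets were set against OA and CO in a contrast added after the values were seen. The labels do not give the fatty acids of the CO diet. It called 47 of 36374 features in Il10-/- colon (0.129%) and no member. With Il10-/- OA pool 1 read as EPA it called 0 of 35909. With 1 array left out the count ran from 4 to 133. It was 4 without Il10-/- EPA pool 1, 26 without EPA pool 2, 5 without CO pool 2, 7 without AA pool 2 and 6 without either OA pool, and it was 126 and 133 without C57BL/6J CO pool 1 and pool 2. Myh11 was 0.64 ± 0.15 higher (limma adjusted p = 0.138), Acta2 feature 31996 0.66 ± 0.15 (0.13) and Synpo2 feature 28914 0.47 ± 0.10 (0.122). Lmod1 stood 0.32 ± 0.11 (0.357) and Tagln 0.39 ± 0.17 (0.51) higher, while Des differed by 0.05 ± 0.30 (0.978). All 4 EPA and AA arrays lay above all 4 OA and CO arrays in 6 of the 13 features (both tested Acta2 features, Lmod1, Myh11, Synpo2 feature 28914 and Myocd feature 4237), against 5.01% of all features. This separation rests on the label of Il10-/- OA pool 1. With that array read as EPA, 0 of the 13 features separated, and the contrast gave 0.44 ± 0.21 for Myh11, 0.44 ± 0.20 for Acta2 feature 31996 and 0.34 ± 0.14 for Synpo2 feature 28914 (limma adjusted p = 1 for each). In C57BL/6J colon 1 of 13 did (Synpo2 feature 10733), against 2.17%. The difference of this contrast between genotypes called 0 features (smallest adjusted p = 0.0517, 3046 at an unadjusted p under 0.05), with Myh11 at 0.82 ± 0.21 (limma adjusted p = 0.234) and Synpo2 feature 28914 at 0.64 ± 0.15 (0.164).

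Members differed in how far the pools of a group lay apart. The residual SD of Des was 0.54, at the 99.5th percentile of all features, and that of Smtn 0.42, at the 98.6th. Synpo2 feature 28914 lay at the 60.4th percentile, Lmod1 at the 63rd and Myocd feature 4237 at the 24.5th. In C57BL/6J AA the pool 1 value was below that of pool 2 by 1.38 for Des, 1.28 for Smtn and 0.72 for Tagln, and in C57BL/6J CO it was above by 1.19, 0.82 and 0.56. Smtn, Tagln, Synpo2 feature 18370 and Myocd feature 4237 each had the same sign of pool difference as Des in 7 of 8 groups, and Myh11, Acta2 feature 31996 and Myocd feature 18083 in 6. Lmod1 had it in 2, Synpo2 feature 10733 in 3, and Acta2 feature 25450 and Synpo2 feature 28914 in 4. The same count was not made over all features, so these signs are no result about the set.

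**Figure D5:**
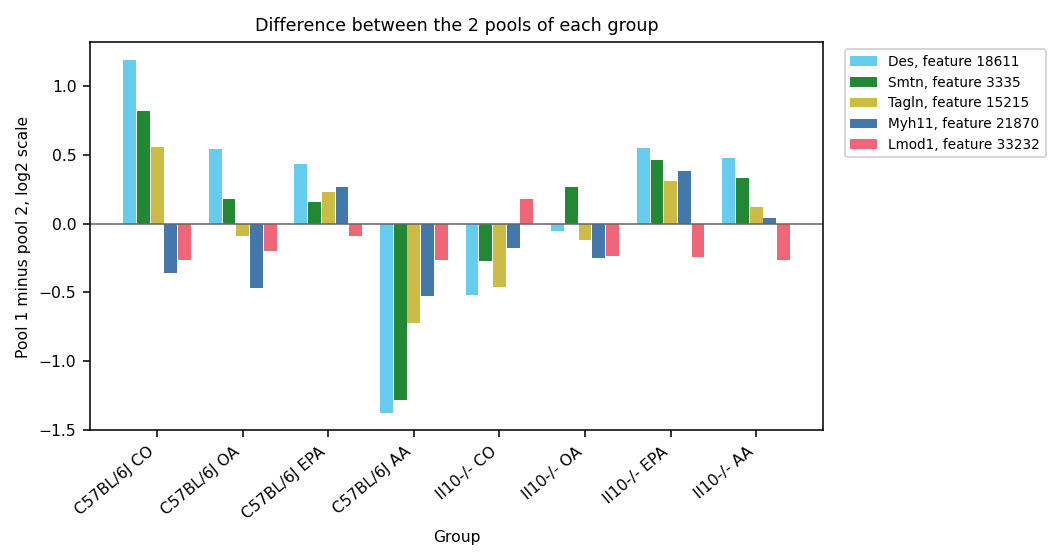
Pool 1 minus pool 2 in log2 ratio is plotted for Des, Smtn, Tagln, Myh11 and Lmod1 in each of the 8 groups. Des, Smtn and Tagln lie farthest from 0 in C57BL/6J CO, where they are above it, and in C57BL/6J AA, where they are below it.

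Other genes of the contractile apparatus fell in part. Of 16 tested companions of the filaments, dense bodies and cytoskeleton, 8 genes had a feature that fell and none had one that rose (12 of 40 features, median −0.15). Over all features tested 7.65% fell. Here and below, a called gene given with 1 value is shown by its feature of largest called difference. Other features of such a gene, where it has any, may differ or not be called. Synemin, the intermediate filament partner of desmin, fell by 1.01 ± 0.09 in Synm feature 2467, Pdlim3, an actinin-binding protein, by 0.98 ± 0.16, and Flna, the actin cross-linker filamin A, by 0.87 ± 0.23 (limma adjusted p = 4.48e-06, 0.000911 and 0.0188). Mylk, the kinase of the myosin light chain, fell by 0.69 ± 0.05 in feature 39393 and 0.23 ± 0.06 in feature 2981, while feature 18287 differed by −0.06 ± 0.05 (limma adjusted p = 1.67e-06, 0.0201 and 0.574). Cald1, caldesmon, which restrains actomyosin, fell by 0.63 ± 0.09 and 0.21 ± 0.06 in 2 features and differed by 0.06 ± 0.10 in the third (limma adjusted p = 0.000383, 0.0392 and 0.747).

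Vcl, vinculin of the adhesion plaque, did not pass in either feature, at −0.27 ± 0.15 and −0.08 ± 0.10 (limma adjusted p = 0.271 and 0.648). The feature of Myl9, the regulatory myosin light chain, was tied on 16 of 16 arrays, and the features of Tpm2, a tropomyosin, on 14 and 8, so neither was tested.

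Of 18 tested genes that control contraction, 9 had a feature that fell and none rose (9 of 35 features, median −0.14). Ppp1r14a, which inhibits myosin phosphatase, fell by 0.64 ± 0.10 in its 1 feature (limma adjusted p = 0.000421). Pde5a, which breaks down cyclic GMP, fell by 0.55 ± 0.07 in 1 of its 2 features (limma adjusted p = 0.000115). Gucy1b1, a subunit of the nitric oxide receptor, fell by 0.48 ± 0.07 in 1 of its 3 (limma adjusted p = 0.000305). No other feature of Pde5a or Gucy1b1 was called. These 3 genes do not act in the same direction, since Ppp1r14a and Pde5a act against relaxation and Gucy1b1 for it. Kcnmb1, the accessory subunit of the large calcium-activated potassium channel, differed by −0.03 ± 0.07 in its tested feature (limma adjusted p = 0.838).

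Of 12 tested genes of the dystrophin complex, caveolae and membrane junctions, 6 fell and none rose (9 of 28 features, median −0.14), with Cav1, the caveolar coat protein, at −1.16 ± 0.10, Sgce, a sarcoglycan, at −0.65 ± 0.07 and Jph2, a junctophilin, at −0.64 ± 0.08 (limma adjusted p = 5.83e-06, 2e-05 and 0.000114). Of 12 tested regulators only Foxf2, a forkhead factor of gut mesenchyme, at −0.70 ± 0.08, and Srf, the partner of myocardin, at −0.23 ± 0.05, fell (limma adjusted p = 4.47e-05 and 0.00752; 2 of 24 features, median −0.04). That share is close to the 7.65% of all features that fell, so it is no result about the regulators as a group. Gata6 did not pass in any of its 3 features, with differences of −0.09, −0.14 and 0.07 (limma adjusted p = 0.376, 0.078 and 0.626).

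Markers of several other cell types moved with genotype as well. Counts below are of genes with at least 1 called feature, while over all features 7.65% fell and 8.54% rose. The mean over 12 member features ran from 0.26 to 0.74 on the C57BL/6J arrays and from −0.10 to 0.30 on the Il10-/- arrays. Leukocyte markers ran from −0.28 to 0.00 and from 0.41 to 0.72, and 7 of 11 tested genes rose and none fell, S100a9 and S100a8 (neutrophil calcium-binding proteins) by 4.00 ± 0.21 and 2.73 ± 0.15 (limma adjusted p = 9.67e-08 and 1.42e-07). Adipocyte markers ran from −0.49 to 1.75 and from −0.74 to 0.09, and all 7 tested genes fell, Adipoq, the adipokine adiponectin, by 1.47 ± 0.23 and Lpl, lipoprotein lipase, by 1.39 ± 0.17 in feature 30970 (limma adjusted p = 0.000705 and 6.91e-05). Pericyte markers, of contractile cells around small vessels, ran from 0.13 to 0.32 and from −0.41 to −0.10, and all 6 tested genes fell, Rgs5 by 0.90 ± 0.09 and Kcnj8 by 0.85 ± 0.11 (limma adjusted p = 2.3e-05 and 0.000137).

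Markers of interstitial cells of Cajal, the pacemakers of the gut muscle, fell in 5 of 6 tested genes, with Kit, their receptor kinase, at −0.56 ± 0.18 and Etv1, a transcription factor, at −0.47 ± 0.07 (limma adjusted p = 0.0474 and 0.000559), and ran from −0.70 to −0.18 and from −0.87 to −0.54. Neuron and glia markers fell in 4 of 12, with Uchl1 at −0.68 ± 0.08 and Snap25 at −0.47 ± 0.11 (limma adjusted p = 8.62e-05 and 0.0122), and ran from 0.09 to 0.61 and from −0.03 to 0.22. Striated muscle markers fell in 3 of 10, Acta1, skeletal actin, by 0.61 ± 0.16 and Tnnt2, cardiac troponin T, by 0.37 ± 0.10 (limma adjusted p = 0.0177 and 0.0229), and ran from −2.42 to −1.83 and from −2.69 to −1.77. Fibroblast markers ran from −0.51 to −0.29 and from −0.49 to −0.35, with 2 of 10 genes lower, among them Pdgfra at −0.71 ± 0.07, and 1 higher, Thy1, at 0.68 ± 0.07 in feature 24343 (limma adjusted p = 2.33e-05 and 1.92e-05). The neuron and glia, striated muscle and fibroblast counts are of genes with any called feature. Whether they exceed the 7.65% of all features that fell was not tested.

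Of 16 features of epithelium markers 11 were tied on all 16 arrays. Of the 3 genes tested Slc26a3, the chloride exchanger, fell by 1.03 ± 0.22 and 0.88 ± 0.19 in 2 of its 3 features (limma adjusted p = 0.00498 and 0.00615). The mean of 4 features ran from 0.80 to 1.64 and from 0.66 to 1.23. The part of these other cell types in the contractile gene result was not tested. Within the Il10-/- arrays the member mean ran from 0.17 to 0.30 on EPA and AA and from −0.10 to 0.07 on OA and CO. Over the same arrays neuron and glia markers ran from 0.15 to 0.22 and from −0.03 to 0.04, pericyte markers from −0.20 to −0.10 and from −0.41 to −0.21, epithelium markers from 0.94 to 1.23 and from 0.66 to 0.83, and adipocyte markers from −0.27 to 0.09 and from −0.74 to −0.35. The member mean and these 4 lists all separated the diets in the same direction, and their part in the diet pattern was not tested. With Il10-/- OA pool 1 read as EPA, the member mean no longer separated, at −0.10 to 0.30 against −0.04 to 0.07, and of the 4 lists only the epithelium markers did. That list is a mean of 4 features of at most 3 genes, at least 2 of them from Slc26a3, so it is a narrow measure of epithelium. By the title label, the lists of filament companions, contraction control, the membrane complex and regulators all overlapped between these diets. So did those of interstitial cells of Cajal, fibroblasts, striated muscle and leukocytes. Filament companions ran from −0.41 to −0.23 on EPA and AA and from −0.35 to −0.29 on OA and CO. Genes that control contraction ran from −0.11 to −0.06 and from −0.10 to −0.07.

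The genes most like the contractile set over the 16 arrays were ranked by Pearson's r with the mean of 12 member features, among 30289 features without missing or tied values. The arrays share the genotype difference, so r is only a description. The 10 named genes with the highest r that are not members were Pcp4l1 (0.97), Cpe (0.95), Tppp3 (0.95), Psd (0.95), Myom1 (0.95), Mfap3l (0.95), Pcdh17 (0.95), Popdc2 (0.94), Msrb3 (0.94) and Tnxb (0.94). After the group means were taken out, Pcp4l1 kept an r of 0.94, Pcdh17 0.91 and Mfap3l 0.89, while Cpe had 0.68 and Psd 0.69. Among the members themselves, Tagln had an r of 0.97 with the mean that includes it, and 0.95 after group means were taken out, while Lmod1 had 0.85 and −0.01. Des and Smtn each had 0.94 after group means were taken out, and Synpo2 feature 28914 0.42. The features were centred but not scaled, so members whose pools lay far apart, such as Des and Smtn, weighed most in that r.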

How the data were processed

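The members and gene lists were chosen with earlier results of these data known. The authors' deposited values were log2 ratios per feature. Base 2 was assumed and the direction was not stated. It was taken as sample over reference because the median of 7 features of reference tissue genes lay between −3.373 and −1.836, below 0 on 16 of 16 arrays. Per the submitters' processing notes limma was used, without a version or role. How ratios were normalized, corrected for background or left missing is not stated there or in the labels. Of 44290 features 41883 had a value, 37005 to 40827 on an array. No brightness was used here, so dim and saturated spots could not be recognised, and precision is limited by the number of arrays.

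Tied values were set to missing, and the 36374 features that then had a value in all 8 groups entered a fit by limma (version 3.58.1, R 4.3.3; 8 group means, 16 arrays, eBayes, residual df 8, Benjamini-Hochberg at 0.05). The fit was tested on simulated data. Figures and searches used Python 3.11.15, pandas 2.3.3, numpy 2.4.6 and matplotlib 3.10.9.

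The platform annotation gave gene names, a single symbol for 32042 features and several for 47. All 19 member symbols were unchanged through the gene ID in a RefSeq table of GRCm38.p6, which also held 14 of the 19 transcript accessions. Positions and promoters are from the same RefSeq build, and 4 members had no promoter window used here. The rule for names in the text took all members, the fixed genes Mylk, Myl9, Tpm2, Cald1, Vcl, Kcnmb1, Srf and Gata6, the 3 largest called differences of each muscle list, the 2 largest of each other list, and the 10 genes of highest likeness. Alternatives were kept tied values, only features without ties or gaps, gene means, quantile normalization, array weights, a variance trend, the other diet label, the replicate block, only the groups compared, and each array left out. No 2 of the 120 array pairs held identical values. Sampling days are not tied to pools in the labels and were not tested.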

Additional observations from a re-analysis of the deposited data

Results flagged for a closer look

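In some features the pools of a group moved without overlap in a given direction and those of another group in the opposite direction. With so few arrays in each group, such a lack of overlap can arise by chance. How often it occurs over all features was not counted, so these patterns are a description and no result about the genes. Whether the paired differences below differ from each other was not tested for single pairs of diets. The interaction over all 4 diets had an adjusted p (limma) of 0.468 for Synpo2 feature 28914, 0.852 for Tagln, 0.971 for Myocd feature 18083 and 0.947 for Myocd feature 34734.

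For Synpo2 feature 28914 the EPA minus OA difference was −0.1863 in C57BL/6J and 0.3681 in Il10-/- colon, and the AA minus OA difference was −0.335 and 0.5854. For Tagln feature 15215 the EPA minus OA difference was −0.3976 in C57BL/6J and 0.469 in Il10-/- colon. For Myocd feature 18083 the AA minus OA difference was −0.1163 and 0.1011, and its Il10-/- minus C57BL/6J difference was −0.05716 on OA and 0.1602 on AA. For Myocd feature 34734 the Il10-/- minus C57BL/6J difference was −0.1276 on EPA and 0.04355 on AA, where 1 Il10-/- array had no value. Apart from those of Myocd feature 34734, these patterns use the Il10-/- OA arrays, and so pool 1, whose source label names EPA.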

How the results depend on the processing

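Averaged over diets, 7 member genes were lower, and 6 to 8 with 1 array left out; the other settings gave 6 or 7, and none gave a gene that was higher. Lmod1, Myh11, Acta2 feature 31996, Tagln, Synpo2 feature 28914 and Myocd feature 4237 were called in 23 of 23 settings. Des was lost under quantile normalization (adjusted p = 0.0917) and without 8 of the single arrays (adjusted p = 0.0571 to 0.0817), and Acta2 feature 25450 was gained without C57BL/6J CO pool 2 (limma adjusted p = 0.04). Averaging the features of a gene gave smaller sizes, with Acta2 at −0.39, Synpo2 at −0.32 and Myocd at −0.15.

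On CO the count of 5 became 3 with gene means without ties, 3 with array weights and 1 with only the arrays compared, and ran from 3 (without Il10-/- CO pool 1) to 6 with 1 array left out. On OA the count of 6 became 1 with the other diet label of Il10-/- OA pool 1 and ran from 1 (without C57BL/6J OA pool 2 or Il10-/- OA pool 1) to 6. On EPA the count of 1 became 0 with either gene mean, 2 with the other diet label, and ran from 0 (without any of the 4 EPA arrays) to 1. For AA against OA in Il10-/- colon array weights gave 1 gene, Acta2, and for EPA and AA against OA and CO they gave 3 (Acta2, Myh11 and Synpo2), where a fit on only the arrays compared gave 1 (Myh11). Over all features that contrast called 47, but 296 with array weights, 134 with only the arrays compared, 20 or 21 with gene means, and 0 with the other diet label. The causes were not tested, beyond the fewer arrays in the fits that leave arrays out.

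Pool numbers did not pair the arrays (correlation of deviations −0.418 to 0.427, median 0.0679, over 28 pairs of groups). With the replicate block the counts were 7 averaged, 5 on CO, 6 on OA, 1 on EPA and 0 on AA.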
